A study of Mus musculus with 15 samples.

Results

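Glycolysis and the pentose phosphate pathway were followed through 36 genes in mouse BMDMs (bone marrow-derived macrophages), cells that mature from marrow precursors in culture under the growth factor M-CSF. The genes are the sugar and lactate carriers, the enzymes from hexokinase to lactate dehydrogenase, and *Pfkfb3* and *Pfkfb4* of the 6-phosphofructo-2-kinases. Also included are 2 pyruvate dehydrogenase kinases, the enzymes of the pentose phosphate pathway and 2 genes of the hypoxia-inducible factor (HIF) system. They were found by symbol among the 53465 Ensembl identifiers of the deposited count matrix, where they matched 37 identifiers because *Aldoa* has a pair of them. All 37 passed the filter on low counts and together took between 0.98% and 1.41% of the counts of a library. In the GRCm38 annotation the genes described most fully below span, as whole genes with introns, *Slc2a1* at chr4:119108711-119137983, *Ldha* at chr7:46841475-46855627, *Ldhb* at chr6:142490249-142507957, *G6pdx* at chrX:74409483-74429194, *Slc2a6* at chr2:27021363-27027998, *Pfkfb4* at chr9:108991778-109032228 and *Hk3* at chr13:55005985-55021385.

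Cells from 7 days of culture with M-CSF (20 ng/ml) were left without cytokine (control) or received a cytokine for 24 h, which was IL-4 at 10 ng/ml or IL-13 at 40 ng/ml, each without IL-6 or with IL-6 at 40 ng/ml. Each of the 5 groups has 3 RNAseq libraries, and IL-6 was not given alone. The labels give neither the strain nor the age of the mice for these libraries. The study says of its data in general that they rest on independent experiments and calls the replicates of its IL-4 experiment biological. The labels do not say whether the replicates came from separate mice or cultures, and the p-values measure the spread between these libraries.

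Glycolysis splits glucose into pyruvate, and macrophages can turn that pyruvate into lactate or pass it to mitochondria through pyruvate dehydrogenase. The pentose phosphate pathway branches off at glucose 6-phosphate. Its oxidative arm makes NADPH, which feeds lipid synthesis, antioxidant defence and the oxidative burst, and its other arm interconverts sugar phosphates. Several steps are served by genes that encode alternative isoforms, and a number of these genes are textbook targets of HIF.

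Total counts were between 17001352 and 18918686 per library. Transcripts of the 8 macrophage markers were found in every library, and most of their summed level was *Lyz2*. In normalised CPM (the share of the library's counts, scaled with TMM factors), the sum was between 18930 and 21110 in control, between 14310 and 14780 in IL-4 and between 17050 and 19800 in IL-13. With IL-6 it was between 10900 and 12700 beside IL-4 and between 13930 and 14820 beside IL-13. *Mertk* had the lowest mean of the 8 in every group, at 143 CPM in control and between 8.27 and 17.9 CPM in the treated groups. *Socs3*, a gene that IL-6 signaling turns on through STAT3, averaged 129 CPM in IL-4/IL-6 and 107 CPM in IL-13/IL-6, against at most 8.73 CPM in the other groups. A pair of libraries stood apart from the other 2 of their group over all genes, namely IL-4/IL-6 replicate 2 and IL-13 replicate 1. The biological coefficient of variation was 14.8% in IL-4/IL-6 and 10.9% in IL-13, and between 4.48% (control) and 7.38% (IL-13/IL-6) in the remaining groups. Control libraries also held transcripts of other marrow cells. The summed level of 11 granulocyte markers was between 499.7 and 587.8 CPM in control and between 1.64 and 3.75 CPM in the cytokine-treated libraries. *Ly6g* among them was at 0 in the treated libraries and at most 0.224 CPM in control. The 6 megakaryocyte and platelet markers summed to between 378.3 and 422.4 CPM in control, and *Ppbp* and *Itga2b* among them averaged 166 and 114 CPM there but at most 4.16 and 1.72 CPM in the treated groups. The part of these other cells in any difference from control was not tested, and fewer cells of a type cannot be told apart from less RNA per cell in such bulk samples. Comparisons with and without IL-6 were made among treated libraries, where the granulocyte sum did not pass 3.75 CPM.

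A change was called where edgeR's quasi-likelihood test, fitted once to all 15 libraries, gave a Benjamini-Hochberg adjusted p under 0.05 over the 13938 genes tested. All fold changes below are log2 differences of this fit with their standard error (SE), and all levels are normalised CPM unless FPKM is named.

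IL-4 and IL-13 each raised *Slc2a1*, *Ldha* and the other enzymes of the glycolytic trunk over control, lowered *Ldhb*, and lowered the NADPH-forming pair *G6pdx* and *Pgd*. In IL-4 over control, 19 of 37 identifiers rose and 10 fell, where 32.1% of all genes tested rose and 35.9% fell. With a change beyond 2-fold, 4 rose and 2 fell, against 10.0% and 16.1% of all genes. In IL-13 over control, 20 rose and 8 fell (all genes: 29.0% and 31.1%), and beyond 2-fold 7 rose and 2 fell (7.74% and 12.6%). The median change of the 37 was 0.34 with IL-4 and 0.28 with IL-13, and the median over all genes was -0.05 and -0.02. Both comparisons share the control libraries. IL-6 co-addition mostly lowered the genes that it changed: in IL-4/IL-6 against IL-4, 7 rose and 15 fell (20.7% and 18.7% of all genes; 4 and 18 with upper-quartile factors, where the shares were 14.9% and 23.3%), and in IL-13/IL-6 against IL-13, 6 rose and 11 fell (12.1% and 13.5%). Beyond 2-fold, none rose in either, 3 fell with IL-4 and none with IL-13 (all genes: 4.34% rose and 7.47% fell with IL-4, 3.06% and 4.19% with IL-13). The heat map of the 36 genes shows these patterns library by library.

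**Figure D1:**
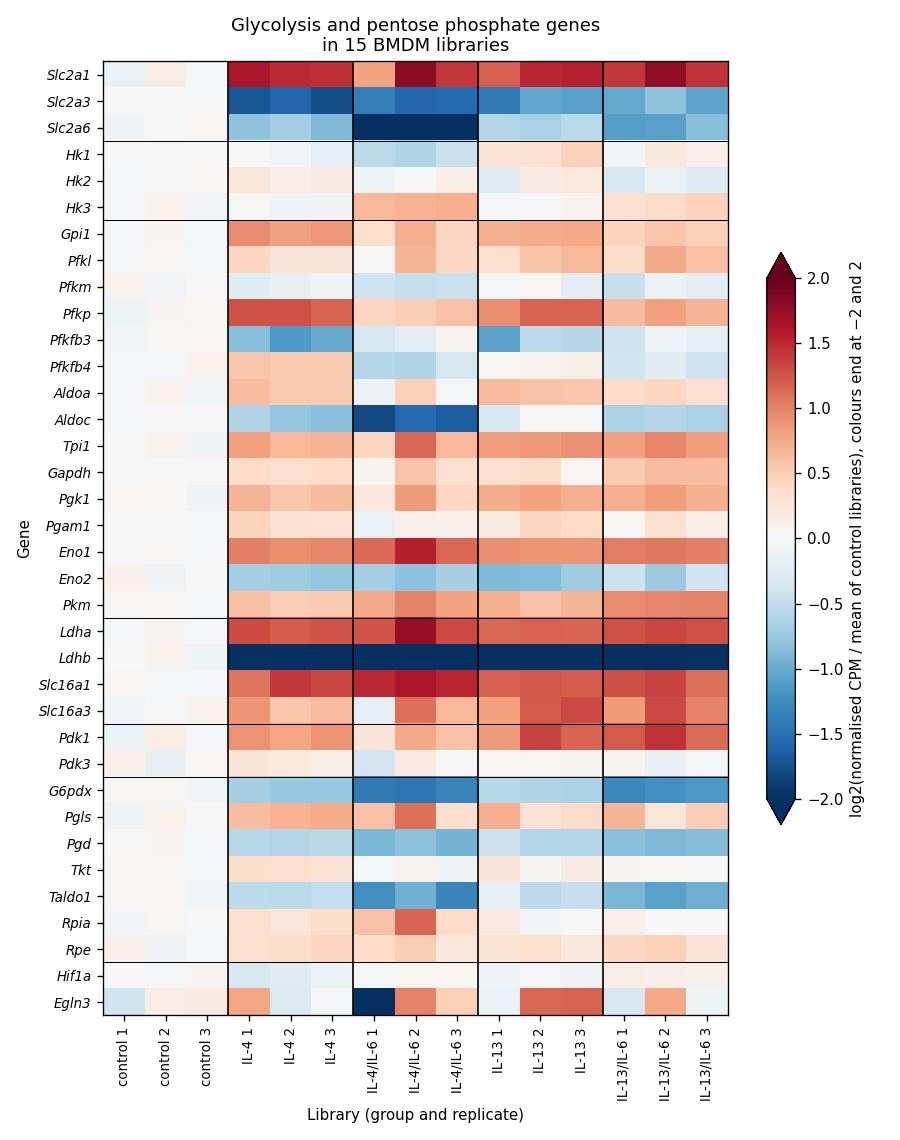
Level of each gene (rows) in each of the 15 libraries (columns, 3 per group) as log2 of the ratio of its normalised CPM to the mean of the control libraries. Lines part the groups and the gene classes, colours end at -2 and 2, and the second *Aldoa* identifier is left out. *Ldhb* and *Slc2a3* are blue and *Slc2a1*, *Ldha* and *Slc16a1* red in all 12 treated libraries.

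Glucose enters cells through carriers of the GLUT family. *Slc2a1*, which encodes the widespread carrier GLUT1, stood at 33.4, 40.7 and 36.2 CPM in control, 114.6, 103.0 and 100.9 in IL-4, and 84.4, 105.8 and 107.4 in IL-13. Every treated library was above every control library, and the rise was 1.53 ± 0.18 (SE, adjusted p = 1.1e-06) with IL-4 and 1.43 ± 0.18 (adjusted p = 3.08e-06) with IL-13. With IL-6 the level was 64.0, 127.5 and 97.6 CPM beside IL-4 and 97.9, 125.1 and 100.2 beside IL-13. These values overlapped those without IL-6 and no change was called, although in IL-4/IL-6 against IL-4 the fold change reached -0.41 with a call without IL-4/IL-6 replicate 2.

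The other carriers went the opposite way. *Slc2a3*, which encodes the high-affinity carrier GLUT3, fell from 34.5, 34.2 and 34.1 CPM in control to 10.4, 11.5 and 10.0 in IL-4 (-1.69 ± 0.11, adjusted p = 4.69e-10) and to 12.9, 16.7 and 16.1 in IL-13 (-1.17 ± 0.11, adjusted p = 4.79e-08). Its level was higher in IL-13 than in IL-4 by 0.52 ± 0.11 (adjusted p = 0.00442). With IL-6 it was between 11.5 and 13.1 CPM beside IL-4 and between 16.5 and 19.7 beside IL-13, and neither change was called. *Slc2a6*, which encodes GLUT6, a carrier of intracellular membranes, fell at each addition. It was at 67.0, 70.8 and 72.3 CPM in control, 40.2, 43.1 and 38.0 in IL-4, and 16.1, 15.2 and 16.2 in IL-4/IL-6. The fall in IL-4/IL-6 against IL-4 was -1.35 ± 0.08 (adjusted p = 5.94e-10), the largest of the called changes with IL-6 among the identifiers with over 20 counts per library. In IL-13 it was at 46.6, 44.9 and 48.0 CPM and in IL-13/IL-6 at 32.7, 33.0 and 38.7, a fall of -0.42 ± 0.08 (adjusted p = 0.000527). The fall with IL-6 was smaller beside IL-13 than beside IL-4 by 0.93 ± 0.11 (adjusted p = 4.05e-05).

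As a share of the summed FPKM of the 3 carriers, which corrects for gene length, *Slc2a1* took 28.3% ± 1.73 (SD, n = 3) in control, 68.3% ± 1.93 in IL-4, 79.5% ± 6.27 in IL-4/IL-6, 62.9% ± 2.85 in IL-13 and 69.7% ± 3.38 in IL-13/IL-6. *Slc2a6* was the leading carrier transcript in control, at 58.9% ± 1.33, and held 15.3% ± 4.48 in IL-4/IL-6.

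Hexokinases trap glucose in the cell as glucose 6-phosphate. *Hk3*, a hexokinase of myeloid cells, made up most hexokinase transcripts in every library and was not called between control and IL-4 or IL-13. Its level was between 461.8 and 502.1 CPM in control, between 451.1 and 486.4 in IL-4 and between 463.0 and 500.0 in IL-13. In IL-4/IL-6 it was 760.4, 772.8 and 787.4 CPM, a rise of 0.73 ± 0.06 (adjusted p = 1.77e-08), and in IL-13/IL-6 it was 602.9, 626.3 and 659.8 CPM, a rise of 0.40 ± 0.06 (adjusted p = 5.28e-05). The rise beside IL-13 was smaller by 0.34 (difference -0.34 ± 0.08, adjusted p = 0.0154). This call of the difference was lost under 5 of 24 other settings, with adjusted p up to 0.0893. *Hk1*, the housekeeping form, was 113.0, 108.9 and 99.3 CPM in IL-4 and 78.4, 74.7 and 83.2 in IL-4/IL-6 (-0.44 ± 0.08, adjusted p = 0.000206). It rose with IL-13 over control by 0.35 ± 0.08 and fell with IL-6 beside IL-13 by 0.26 on the log2 scale, a call lost without IL-13 replicate 3 (-0.20, adjusted p = 0.107) or IL-13/IL-6 replicate 1 (-0.21, adjusted p = 0.105). *Hk2*, the inducible form, was between 73.0 and 106.6 CPM in all 15 libraries, and its one call among the 4 main comparisons, -0.30 ± 0.10 in IL-13/IL-6 against IL-13 (adjusted p = 0.0334), came from groups that overlapped and was lost without IL-13 replicate 2 or 3 or IL-13/IL-6 replicate 1 or 3 (adjusted p up to 0.171). Its difference in IL-4 over control, 0.19 and not called, was called under 5 of 24 other settings, among them without IL-4/IL-6 replicate 2 (0.23) or IL-13 replicate 1 (0.23). In IL-13 over control (0.06) 2 other settings gave a call for *Hk2*, among them without IL-13 replicate 1. In IL-4/IL-6 against IL-4 (-0.17) 4 did. The share of *Hk3* in hexokinase FPKM was 81.9% ± 0.65 in control, 80.8% ± 0.30 in IL-4, 89.5% ± 0.46 in IL-4/IL-6, 79.9% ± 1.28 in IL-13 and 86.3% ± 0.95 in IL-13/IL-6.

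Phosphofructokinase commits sugar to glycolysis, and the 6-phosphofructo-2-kinases make and break its activator, fructose 2,6-bisphosphate. *Pfkp*, the platelet-type subunit, rose from 74.7, 83.1 and 82.2 CPM in control to 193.1, 193.4 and 181.7 in IL-4 (1.24 ± 0.08, adjusted p = 3.3e-10) and to 152.9, 180.8 and 181.4 in IL-13 (1.10 ± 0.08, adjusted p = 2.17e-09). With IL-6 it fell back, to 108.1, 113.0 and 120.2 CPM beside IL-4 (-0.74 ± 0.08, adjusted p = 5.2e-07) and to 124.5, 140.9 and 128.8 beside IL-13 (-0.39 ± 0.08, adjusted p = 0.000928). All IL-6 libraries lay between control and the matching group without IL-6. *Pfkl*, the liver-type subunit, rose over control by 0.32 ± 0.13 with IL-4 and 0.53 ± 0.13 with IL-13, and the IL-4 call was lost under 6 of 24 other settings, among them without any one control replicate or IL-4 replicate 1 (adjusted p up to 0.0865). *Pfkm*, the muscle-type subunit, was between 12.7 and 18.6 CPM throughout, and its fall in IL-4/IL-6 against IL-4 (-0.29 ± 0.10, adjusted p = 0.0352) was lost under 6 other settings, among them without IL-4 replicate 2 or 3 or IL-4/IL-6 replicate 2 (adjusted p up to 0.0871). The share of *Pfkp* in phosphofructokinase FPKM was 20.1% ± 0.95 in control, 34.0% ± 0.99 in IL-4, 23.8% ± 2.99 in IL-4/IL-6, 28.9% ± 0.30 in IL-13 and 23.7% ± 1.30 in IL-13/IL-6. *Pfkp* and *Pfkm* overlap genes on the opposite strand (*Pitrm1* and *Senp1*) that took 67.7% and 229% as many counts, and the strand setting of the counting is not given in the sources used here.

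The regulators of this step moved in opposite directions. *Pfkfb4* was at 54.5, 55.1 and 59.3 CPM in control, 83.1, 80.9 and 81.2 in IL-4, and 37.5, 37.1 and 44.1 in IL-4/IL-6. It thus rose with IL-4 (0.54 ± 0.07, adjusted p = 6.5e-06) and, with IL-6, fell below control (IL-4/IL-6 against IL-4 -1.05 ± 0.08, adjusted p = 5.04e-09). In IL-13 it was 57.9, 58.2 and 61.0 CPM, not called against control and lower than in IL-4 by 0.47 (-0.47 ± 0.07, adjusted p = 0.000293), and in IL-13/IL-6 it was 42.6, 47.5 and 42.3 (-0.42 ± 0.08, adjusted p = 0.000394). The falls with IL-6 differed by 0.63 ± 0.11 (adjusted p = 0.000942). *Pfkfb3*, whose product strongly favours synthesis of the activator, fell from 48.6, 51.2 and 51.1 CPM in control to 27.9, 22.8 and 24.9 in IL-4 (-0.99 ± 0.13) and 24.0, 34.6 and 33.4 in IL-13 (-0.71 ± 0.13). With IL-6 it rose, by 0.83 ± 0.13 (adjusted p = 6.61e-05) beside IL-4 and 0.48 ± 0.13 (adjusted p = 0.0104) beside IL-13, and was no longer called against control. The call beside IL-13 was lost without IL-13 replicate 1 (adjusted p = 0.0562) or IL-13/IL-6 replicate 2 (adjusted p = 0.0587).

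From *Gpi1* to *Ldha*, the 9 enzymes of the common trunk (*Gpi1*, *Aldoa*, *Tpi1*, *Gapdh*, *Pgk1*, *Pgam1*, *Eno1*, *Pkm* and *Ldha*) all rose over control. The changes were between 0.35 and 1.26 with IL-4 and between 0.26 and 1.17 with IL-13. IL-6 moved them little and unevenly. In IL-4/IL-6 against IL-4, *Eno1* (0.32 ± 0.08) and *Pkm* (0.31 ± 0.06) rose while *Gpi1* (-0.36 ± 0.08), *Aldoa* (-0.42 ± 0.11) and *Pgam1* (-0.33 ± 0.09) fell. Without IL-4/IL-6 replicate 2 the changes of *Eno1* and *Aldoa* were 0.15 and -0.64, both still called, and *Pgk1* was called lower (-0.32, against -0.10 with all libraries). In IL-13/IL-6 against IL-13, *Pkm* (0.31 ± 0.06) and *Gapdh* (0.33 ± 0.10) rose and *Gpi1* (-0.25 ± 0.08) fell. This fall of *Gpi1* was lost without IL-13 replicate 3 or IL-13/IL-6 replicate 1 or 3 (adjusted p up to 0.0679). *Aldoa* (-0.21), *Pgam1* (-0.18) and *Eno1* (0.13) were not called there, but were under 5, 4 and 3 of 24 other settings. *Pkm*, which encodes pyruvate kinase, thus increased at each addition, from between 1607 and 1676 CPM in control to between 2336 and 2505 in IL-4, between 2798 and 3277 in IL-4/IL-6, between 2490 and 2704 in IL-13 and, with IL-6 beside it, between 3189 and 3275. It had the highest FPKM of the 37 identifiers in control, with *Aldoa* next at a level that overlapped it. *Gapdh* is uncertain, because 93 near-identical copies in the genome took 149.6% as many counts as the gene, and its call in IL-13/IL-6 against IL-13 was lost when their counts were added (0.23, adjusted p = 0.0882) or without IL-13 replicate 3 or IL-13/IL-6 replicate 2 or 3 (adjusted p up to 0.129). Its call in IL-13 over control was lost without any one control replicate or IL-13 replicate 1 or 2 (adjusted p up to 0.109). With the copies added, *Gapdh* rose over control by 0.50 with IL-4 and 0.41 with IL-13, against 0.38 and 0.26 without them. In IL-4/IL-6 against IL-4 its change was then 0.08, against -0.05, and was called in neither case. The copies of *Eno1* took 4.49% and those of *Pgam1* and *Pkm* 2.05% and 1.43%, and the fold changes of these 3 genes kept their calls when copies were added.

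The minor isoforms of aldolase and enolase did not follow the trunk. *Aldoc* fell with IL-4 (-0.74 ± 0.10) and was not called with IL-13, and IL-6 lowered it in both settings, from 17.2, 15.2 and 14.6 CPM in IL-4 to 7.49, 8.84 and 8.35 in IL-4/IL-6 and from 20.4, 26.2 and 25.4 in IL-13 to 16.8, 17.4 and 16.7 in IL-13/IL-6. Its level in IL-13 was 0.62 ± 0.10 above that in IL-4 (adjusted p = 0.000526). *Eno2* fell with IL-4 (-0.72 ± 0.09) and IL-13 (-0.82 ± 0.09). Its rise in IL-13/IL-6 against IL-13 (0.30 ± 0.10, adjusted p = 0.0273) came from overlapping groups and was lost under 8 of 24 other settings, among them without IL-13 replicate 1 or 2 or IL-13/IL-6 replicate 1 or 3 (adjusted p up to 0.162). The second *Aldoa* identifier (ENSMUSG00000114515) held between 0 and 20 counts per library. It was called lower with IL-6 beside IL-4 (0, 1 and 6 counts) than with IL-4 alone (11, 13 and 11 counts), at -2.18 ± 0.61 (adjusted p = 0.00818; -4.18 without IL-4/IL-6 replicate 3 and -1.63 without replicate 1, both still called), and higher in IL-13 (20, 15 and 14 counts) than in control (8, 8 and 6 counts), at 1.12 ± 0.47 (adjusted p = 0.0469), a call lost without any one library of those groups (adjusted p up to 0.133).

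Lactate dehydrogenase converts pyruvate and lactate, and its subunits come from 2 genes, *Ldha* for the muscle-type and *Ldhb* for the heart-type subunit. *Ldha* stood at 623.6, 663.6 and 626.1 CPM in control, 1573, 1480 and 1521 in IL-4 and 1421, 1446 and 1433 in IL-13. The rise was 1.26 ± 0.09 (adjusted p = 2.53e-09) with IL-4 and 1.17 ± 0.09 (adjusted p = 9.07e-09) with IL-13, and IL-6 co-addition gave no call, although in IL-4/IL-6 against IL-4 it was called without IL-4/IL-6 replicate 1 (0.26, adjusted p = 0.0317) or replicate 3 (0.24, adjusted p = 0.0445). *Ldhb* showed the largest change of the 36 genes. It fell from 28.4, 29.4 and 26.5 CPM in control to 3.59, 3.60 and 2.62 in IL-4 (-3.10 ± 0.16, adjusted p = 3.78e-11) and to 3.91, 2.59 and 3.25 in IL-13 (-3.11 ± 0.16, adjusted p = 5.43e-11). With IL-6 it was lower still, at 1.64, 2.12 and 1.90 CPM beside IL-4 (-0.79 ± 0.21, adjusted p = 0.0054) and 2.55, 1.63 and 1.78 beside IL-13 (-0.72 ± 0.20, adjusted p = 0.0143). These levels rest on between 29 and 73 counts per treated library, against between 473 and 544 in control, and the call in IL-13/IL-6 against IL-13 was lost without IL-13 replicate 1, IL-13/IL-6 replicate 2 or IL-13/IL-6 replicate 3 (fold changes between -0.94 and -0.57 over all settings). In FPKM, *Ldha* exceeded *Ldhb* 10.8 ± 0.38 times (SD, n = 3) in control, 226 ± 43.1 times in IL-4, 437 ± 40.2 times in IL-4/IL-6, 216 ± 46.5 times in IL-13 and 389 ± 92.9 times in IL-13/IL-6. *Ldhb* thus went from 8.50% ± 0.28 of lactate dehydrogenase FPKM in control to 0.45% ± 0.08 with IL-4 alone and 0.23% ± 0.02 in IL-4/IL-6. Whether the other marrow cells whose markers were high in the control libraries held the *Ldhb* transcripts there was not tested.

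**Figure D2:**
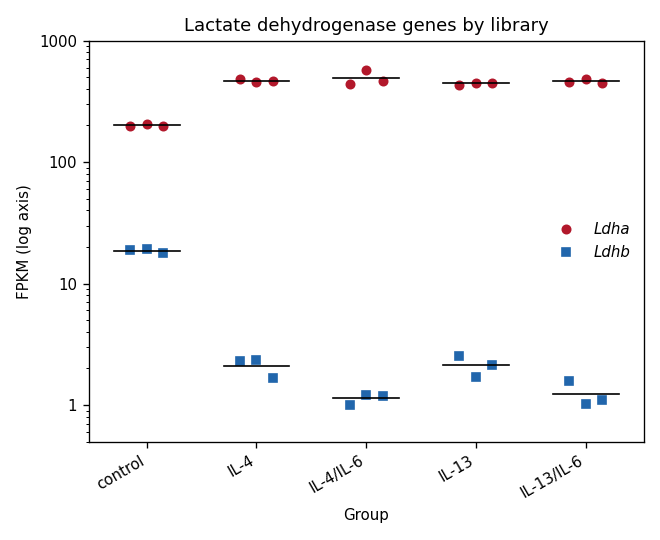
FPKM (log axis) of *Ldha* (circles) and *Ldhb* (squares) in each library, with 3 libraries per group and black lines at the group means. *Ldha* was 10.8 times *Ldhb* in control and at least 216 times in the mean of each treated group.

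Lactate leaves and enters cells through monocarboxylate transporters. *Slc16a1*, which encodes MCT1, rose from 19.5, 18.7 and 18.8 CPM in control to 39.8, 50.4 and 48.0 in IL-4 (1.28 ± 0.09, adjusted p = 1.83e-09) and 43.7, 44.8 and 44.2 in IL-13 (1.22 ± 0.09, adjusted p = 4.72e-09). Its further rise in IL-4/IL-6 against IL-4 (0.28 ± 0.09, adjusted p = 0.0164) was lost under 5 of 24 other settings, among them without IL-4 replicate 1 (0.16, adjusted p = 0.149) and without IL-4/IL-6 replicate 2 (0.22, adjusted p = 0.058). *Slc16a3*, which encodes the exporter MCT4, was at 60.7, 62.7 and 66.3 CPM in control, 116.7, 93.2 and 96.5 in IL-4 and 111.3, 148.4 and 157.8 in IL-13. It rose by 0.69 ± 0.22 (adjusted p = 0.0112) with IL-4 and 1.14 ± 0.22 (adjusted p = 0.000305) with IL-13. In IL-4/IL-6 it spread from 54.95 to 135.8 CPM, which spans the range from below control to above IL-4. *Pdk1*, a kinase that switches pyruvate dehydrogenase off, rose from 56.7, 68.9 and 60.4 CPM in control to 115.3, 107.2 and 115.1 in IL-4 (0.86 ± 0.13, adjusted p = 2.01e-05) and 112.3, 157.8 and 139.4 in IL-13 (1.14 ± 0.13, adjusted p = 1.07e-06). With IL-6 it was 73.9, 105.2 and 92.8 CPM beside IL-4 and 145.0, 168.3 and 134.2 beside IL-13. Neither was called, but in IL-4/IL-6 against IL-4 (-0.31 ± 0.13, adjusted p = 0.0667) 11 of 24 other settings gave a call, among them without IL-4/IL-6 replicate 2 (-0.45). *Pdk3*, a related kinase, was between 13.8 and 21.7 CPM throughout and was not called in the 4 main comparisons. Without IL-4/IL-6 replicate 2 it was called higher in IL-4 over control (0.25) and lower in IL-4/IL-6 against IL-4 (-0.40, from -0.25).

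The pentose phosphate genes split. *G6pdx*, which encodes glucose-6-phosphate dehydrogenase, the entry enzyme and a source of NADPH, was at 254.8, 257.3 and 243.9 CPM in control, 159.3, 148.6 and 148.3 in IL-4, and 94.98, 92.4 and 100.6 in IL-4/IL-6. In IL-13 it was 169.0, 165.4 and 162.9 CPM and in IL-13/IL-6 103.5, 108.9 and 113.8. Each addition lowered it without overlap, by -0.73 ± 0.06 (IL-4 over control), -0.66 ± 0.06 (IL-4/IL-6 against IL-4, adjusted p = 8.26e-08), -0.60 ± 0.06 (IL-13 over control) and -0.61 ± 0.06 (IL-13/IL-6 against IL-13, adjusted p = 4.27e-07). *Pgd*, the second NADPH-forming enzyme, fell by 0.56 with IL-4, by 0.53 with IL-13 and by 0.33 with IL-6 beside either cytokine on the log2 scale. *Taldo1*, which encodes transaldolase of the non-oxidative arm, fell in all 4 comparisons too, with changes of -0.52 ± 0.09 and -0.38 ± 0.09 over control and -0.64 ± 0.09 and -0.60 ± 0.09 with IL-6. The changes of these 3 genes with IL-6 beside IL-13 and beside IL-4 differed by between -0.0006 and 0.06, with SE between 0.08 and 0.13, and no difference was called. Without both libraries that stood apart, that of *Taldo1* was called (0.27, adjusted p = 0.0129). The summed level of the macrophage markers, given above, was also lower in IL-4 than in control and lower with IL-6 than without it. Among these markers, *Adgre1* averaged 1290 CPM in IL-4/IL-6 against 884 in IL-4, and 1450 CPM in IL-13/IL-6 against 941 in IL-13. The means of *Fcgr1* and *Mertk* were also higher with IL-6 beside either cytokine. Those of *Lyz2*, *Csf1r*, *Cd68* and *Cd14* were lower beside either, and that of *Itgam* was lower beside IL-4 and higher beside IL-13. The part of what these markers follow in the falls of *G6pdx*, *Pgd* and *Taldo1* was not tested.

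*Pgls*, which encodes the lactonase between both dehydrogenases, rose instead (0.68 ± 0.15 with IL-4 and 0.48 ± 0.15 with IL-13), as did *Rpe* (0.38 ± 0.08 and 0.28 ± 0.08), the epimerase of the non-oxidative arm. *Tkt*, transketolase, rose with IL-4 (0.34 ± 0.06) and fell in IL-4/IL-6 against IL-4 (-0.34 ± 0.06, adjusted p = 0.000223), where it was between 467.7 and 513.8 CPM and not called against control. Its rise with IL-13 (0.16 ± 0.06, adjusted p = 0.03) was lost under 4 of 24 other settings, among them without control replicate 3 or IL-13 replicate 1 or 3 (adjusted p up to 0.0884). *Rpia*, ribose-5-phosphate isomerase, was 28.4, 42.7 and 24.8 CPM in IL-4/IL-6, and its rise over IL-4 (0.43 ± 0.14, adjusted p = 0.0236) was lost under 8 other settings, including without IL-4/IL-6 replicate 2 (0.15, adjusted p = 0.236) or any one IL-4 replicate (adjusted p up to 0.101). In IL-4 over control *Rpia* was not called (0.32), but 10 of 24 other settings gave a call. *G6pdx* overlaps *Ikbkg* on the opposite strand, which took 38.2% as many counts.

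**Figure D3:**
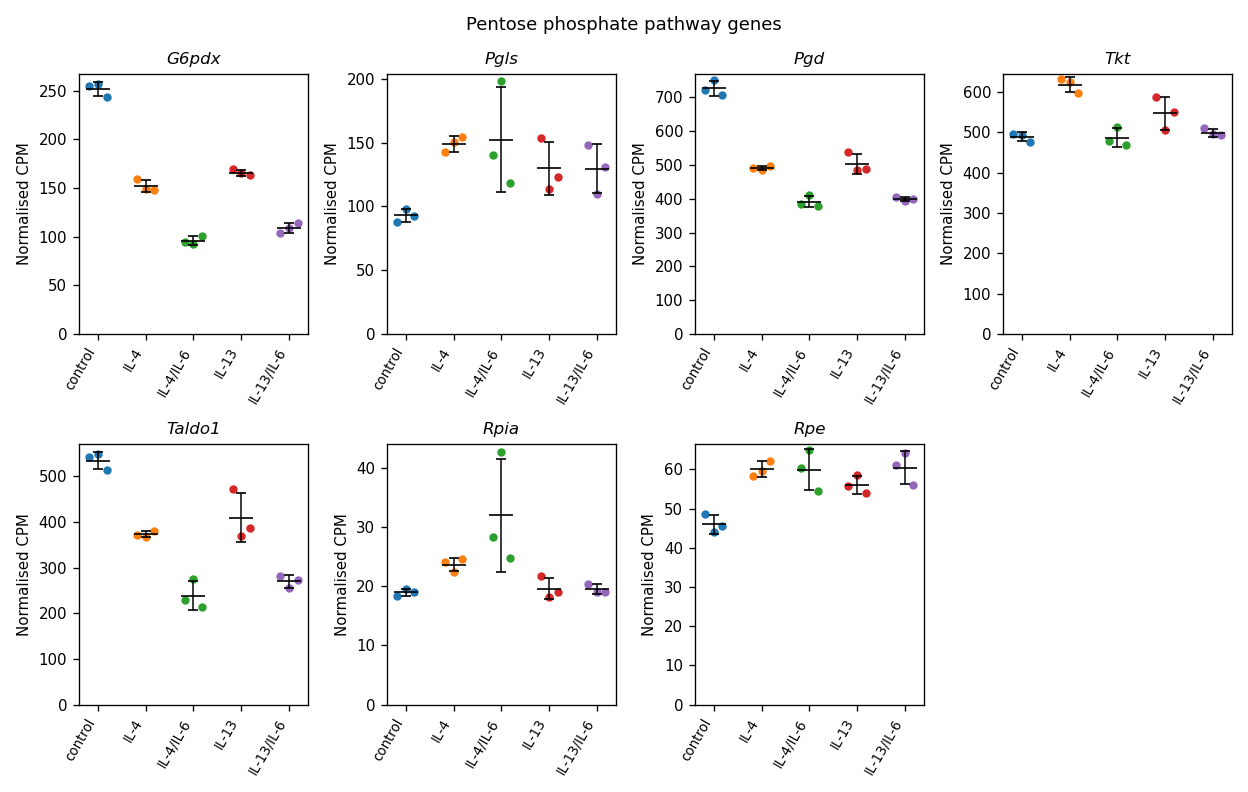
Normalised CPM of the 7 pentose phosphate genes in each library (points), with the mean and SD of the 3 libraries of each group (lines and bars), on axes that start at 0. *G6pdx*, *Pgd* and *Taldo1* step down from control to IL-4 or IL-13 and again with IL-6, while *Tkt* rises with IL-4 before it falls with IL-6, and *Pgls*, *Rpia* and *Rpe* show no such steps down.

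The comparisons with IL-6 beside IL-4 and beside IL-13 share no libraries. Of the genes that rose, 4 were called in both (*Hif1a*, *Hk3*, *Pfkfb3* and *Pkm*), which is 57.1% of the 7 called beside IL-4 and 66.7% of the 6 called beside IL-13 (46.7% and 80.0% over all genes that rose). Of those that fell, 10 were called in both (*Aldoc*, *G6pdx*, *Gpi1*, *Hk1*, *Ldhb*, *Pfkfb4*, *Pfkp*, *Pgd*, *Slc2a6* and *Taldo1*), 66.7% of 15 and 90.9% of 11 (60.8% and 84.2% over all genes that fell). No gene was called in opposite directions. The effects differed for 3 genes, *Slc2a6* and *Pfkfb4*, which fell less beside IL-13, and *Hk3*, which rose less. For *Pfkp* the difference of 0.35 ± 0.11 was not called (adjusted p = 0.0599), but it was under 8 of 24 other settings, among them DESeq2, upper-quartile factors, the replicate block and without IL-4/IL-6 replicate 2 or 3. The 3 calls are 2 genes with a higher and 1 with a lower difference, where 4.42% and 3.22% of all genes were called. Without IL-4/IL-6 replicate 2 the counts were 7 and 1 (all genes: 5.59% and 4.25%), and without both libraries that stood apart 10 and 2 (9.05% and 8.58%). In IL-13 over IL-4, *Slc2a3*, *Hk1* (0.44 ± 0.08) and *Aldoc* were higher and *Pfkfb4* lower, 3 and 1 of 37 against 7.61% and 5.16% of all genes. The megakaryocyte and platelet list also moved with IL-6, from between 70.4 and 74.8 CPM in IL-4 to between 175.2 and 313.8 in IL-4/IL-6 and from between 72.8 and 89.8 in IL-13 to between 349.2 and 421.6 in IL-13/IL-6. Nearly all of it was *Pf4*, at 235 and 390 CPM in the IL-6 groups, while *Itga2b* did not pass a mean of 1.72 CPM in any treated group.

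**Figure D4:**
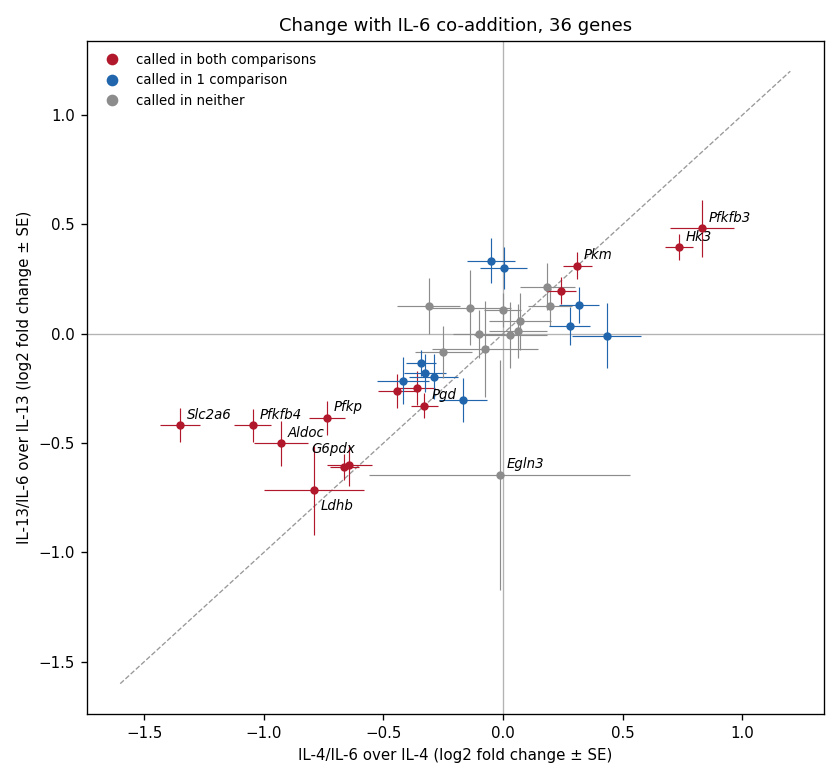
Log2 fold change with IL-6 beside IL-4 (horizontal) and beside IL-13 (vertical) for 36 genes, with SE bars, coloured by how many of both comparisons called the gene. The dashed line marks equal effects, and *Slc2a6* at -1.35 and -0.42 and *Pfkfb4* at -1.05 and -0.42 lie farthest to the left.

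The cells with both cytokines were also compared with control. In IL-4/IL-6 over control, 17 rose and 12 fell (all genes: 35.4% and 37.5%), and in IL-13/IL-6 over control, 17 rose and 11 fell (31.9% and 32.1%). *Ldhb* was at -3.89 ± 0.18 and -3.82 ± 0.18, *G6pdx* at -1.39 ± 0.06 and -1.21 ± 0.06, *Slc2a6* at -2.14 ± 0.08 and -1.01 ± 0.08, *Ldha* at 1.45 ± 0.09 and 1.30 ± 0.09, and *Pkm* at 0.85 ± 0.06 and 0.97 ± 0.06. Other genes stood differently against control with IL-6 than without it. *Pfkfb4*, higher than control with IL-4, was lower once IL-6 was added (-0.51), and *Aldoa* (0.14), *Pgam1* (0.03) and *Tkt* (-0.005), which rose with IL-4, were not called in IL-4/IL-6. *Aldoa* was called there without IL-4/IL-6 replicate 1 (0.26) or without the filter on low counts (0.19), and *Tkt* with library totals (-0.15).

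HIF-1 is a transcription factor that turns on glycolytic genes, and the prolyl hydroxylase encoded by *Egln3* is both its regulator and its target. *Hif1a* changed little. It was lower in IL-4 than in control by 0.23 (-0.23 ± 0.06, adjusted p = 0.00326) and rose with IL-6 by 0.24 ± 0.06 beside IL-4 and 0.20 ± 0.06 beside IL-13, calls that were lost under 2, 4 and 8 of 24 other settings. The first 2 of them were lost without IL-4 replicate 1, and the rise beside IL-13 without any one IL-13/IL-6 replicate or IL-13 replicate 1 or 3 (adjusted p up to 0.116). *Egln3* was called in no comparison, with SE between 0.52 and 0.76. In IL-13 over control (0.85) 4 of 24 other settings gave a call, among them without IL-4/IL-6 replicate 1 (0.89, adjusted p = 0.0398) and without both libraries that stood apart (adjusted p = 0.0126). Without a filter on low counts, it was also called lower in IL-13/IL-6 than in IL-13 (-0.63, adjusted p = 0.0018) and higher in IL-13 than in IL-4 (0.59, adjusted p = 0.00574). Its counts were 79, 108 and 109 in control, 175, 80 and 96 in IL-4, 93, 212 and 239 in IL-13, 12, 182 and 131 in IL-4/IL-6, and 74, 170 and 92 in IL-13/IL-6. In CPM, the highest library was 15.8 times the lowest in IL-4/IL-6 and between 2.11 and 2.47 times in the other treated groups. This pattern was noticed after the values were seen, and no test was made of it. Among the other 36 identifiers, *Gpi1*, *Tpi1* and *Slc16a3* ranked the 3 libraries of all 4 treated groups in the order of *Egln3*, which is 8.33% of them, and *Slc2a1*, *Hk2* and *Pfkl* did so in 3 groups. Of all other genes tested, 15 of 13937 (0.108%) had that order in all 4 groups. In 3 or 4 groups it was held by 225 of these genes and by 6 of the other 36 identifiers. Some ranks rest on near ties. In IL-13/IL-6 replicates 1 and 3, *Gpi1* was at 468.1 and 470.5 CPM and *Tpi1* at 610.6 and 615.0 CPM. *Slc16a3* was 2.47 times, *Slc2a1* 1.99 times and *Tpi1* 1.65 times as high in the highest as in the lowest IL-4/IL-6 library.

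**Figure D5:**
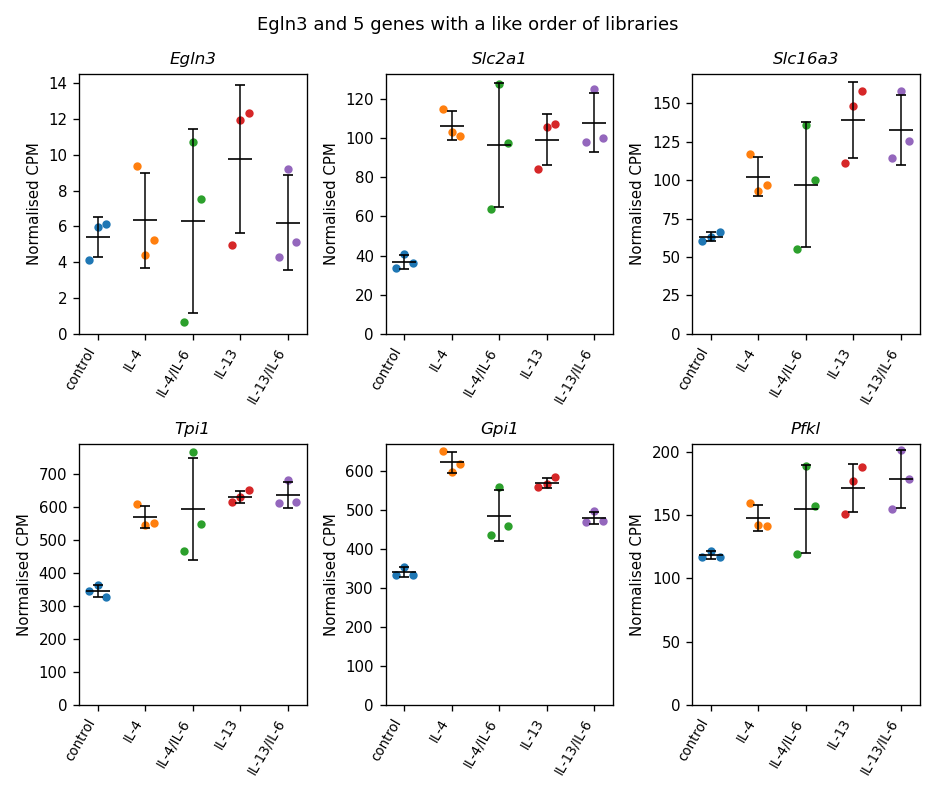
Normalised CPM of *Egln3* and of 5 genes with the same order of libraries in 3 or 4 of the treated groups (points, drawn from replicate 1 on the left to replicate 3 on the right), with the mean and SD of the 3 libraries of each group. IL-4/IL-6 replicate 1 is lowest and replicate 2 highest in its group in all 6 panels, but not in *Hk2*, which is not drawn and had replicate 3 highest there.

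The upstream sequences of genes from these results are shown because a textbook core of HIF binding sites, ACGTG, can be looked for in them. They are the 250 bases before the RefSeq start (GRCm38.p6), 5′ to 3′ on the strand of the gene, with ACGTG on either strand in capitals. Where RefSeq gives several starts, the one nearest the annotated 5′ end of the gene was taken. The start used lies 4329 bases from that end for *Ldha*, so that its window is inside the gene span given above, and 6492 bases for *Hif1a*. *Slc2a1* is at chr4:119108495-119108744, plus strand, *Slc16a3* at chr11:120948817-120949066, plus strand, *Egln3* at chr12:54203875-54204124, minus strand, *Ldha* at chr7:46845554-46845803, plus strand, and *Ldhb* at chr6:142507958-142508207, minus strand.
Slc2a1: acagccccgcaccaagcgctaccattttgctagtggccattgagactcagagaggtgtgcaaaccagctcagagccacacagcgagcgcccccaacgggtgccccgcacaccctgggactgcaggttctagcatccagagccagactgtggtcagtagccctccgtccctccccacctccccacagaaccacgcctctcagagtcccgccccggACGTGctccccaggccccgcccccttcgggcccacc
Slc16a3: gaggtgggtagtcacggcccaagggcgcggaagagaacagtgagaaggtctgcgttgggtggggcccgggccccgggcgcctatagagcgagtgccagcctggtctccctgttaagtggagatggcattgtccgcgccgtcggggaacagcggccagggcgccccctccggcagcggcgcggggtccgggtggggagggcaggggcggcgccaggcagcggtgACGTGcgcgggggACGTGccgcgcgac
Egln3: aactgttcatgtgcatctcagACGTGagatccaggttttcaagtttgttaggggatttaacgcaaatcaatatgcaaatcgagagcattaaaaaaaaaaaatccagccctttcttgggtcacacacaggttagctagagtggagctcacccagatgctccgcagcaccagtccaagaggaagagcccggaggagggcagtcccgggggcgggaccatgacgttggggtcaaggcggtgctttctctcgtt
Ldha: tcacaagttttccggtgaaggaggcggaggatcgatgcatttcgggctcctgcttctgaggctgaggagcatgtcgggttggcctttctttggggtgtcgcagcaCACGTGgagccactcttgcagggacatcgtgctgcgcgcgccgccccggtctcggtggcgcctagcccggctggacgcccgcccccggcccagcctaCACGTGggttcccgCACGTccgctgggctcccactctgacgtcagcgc
Ldhb: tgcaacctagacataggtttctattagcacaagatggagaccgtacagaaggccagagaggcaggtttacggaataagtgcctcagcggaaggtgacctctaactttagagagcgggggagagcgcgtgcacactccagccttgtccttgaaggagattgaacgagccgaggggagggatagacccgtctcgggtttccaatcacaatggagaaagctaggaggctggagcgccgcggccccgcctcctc
*Ldha* has 5 matches, of which 4 form a pair of CACGTG palindromes read on both strands, *Slc16a3* has 2, *Slc2a1* and *Egln3* have 1 each, and *Ldhb* has none. Sequences were found for 35 of the 36 symbols, and ACGTG was in 13 of them (37.1%) and in 16.6% of all 32851 sequences of this length. GCGTG, the other form of the core, was in 19 (54.3%) and in 28.2% of all. Of the motifs bound by STAT factors, TTCNNNNGAA, the spacing usual for STAT6, was in 4 (*Hk3*, *Gpi1*, *Ldha* and *Hif1a*, 11.4%) and in 5.85% of all, and TTCNNNGAA, the spacing usual for STAT3, was in none of the 35 and in 7.02% of all. These windows are 1 start per gene, while the share over all sequences counts every start. With every start of a gene counted, ACGTG was in 15 of the 35 (18.5% of 27025 symbols), GCGTG in 23 (30.9%), TTCNNNNGAA in 5 (6.76%) and TTCNNNGAA in 2, *Aldoc* and *Pfkm* (8.13%). Both strands were searched each time. A match is a description of the letters and not evidence of binding. Of the genes whose libraries followed *Egln3* in all treated groups, *Slc16a3* holds ACGTG in this window, and *Gpi1* and *Tpi1* do not.

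A further list of 75 genes around these pathways (other isoforms, glycogen and pyruvate dehydrogenase enzymes, and HIF components and targets) had 61 genes that passed the filter. Of these, 19 rose and 20 fell in IL-4 over control (all genes: 32.1% and 35.9%), 20 rose and 16 fell in IL-13 over control (29.0% and 31.1%), 23 rose and 7 fell in IL-4/IL-6 against IL-4 (20.7% and 18.7%), and 11 rose and 5 fell in IL-13/IL-6 against IL-13 (12.1% and 13.5%). *Ankrd37*, a target of HIF, had the largest called change of this list in IL-4 over control and in IL-13 over control. It was 0.99, 1.33 and 1.12 CPM in control, 17.9, 12.6 and 15.8 in IL-4 (3.75 ± 0.34, adjusted p = 4.61e-08) and 11.5, 16.2 and 15.4 in IL-13 (3.64 ± 0.34, adjusted p = 9.36e-08). *Pgam2*, the muscle phosphoglycerate mutase, fell from at most 5.27 CPM by -2.79 ± 0.35 and -2.81 ± 0.35. *Pygl*, a glycogen phosphorylase, fell by -1.71 ± 0.12 with IL-4, and *Ddit4*, an inhibitor of mTORC1 signaling, by -1.33 ± 0.28 with IL-13.

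With IL-6, *Ndrg1*, a gene raised by hypoxia and differentiation, went from 11.1, 8.25 and 8.95 CPM in IL-4 to 57.8, 69.6 and 60.2 in IL-4/IL-6 (2.73 ± 0.14, adjusted p = 7.06e-11) and from 14.1, 21.0 and 20.8 in IL-13 to 124.7, 142.1 and 119.2 in IL-13/IL-6 (2.79 ± 0.13, adjusted p = 5.3e-11). *Ier3*, an immediate early gene, rose by 2.21 ± 0.13 and 1.97 ± 0.13. *Vegfa*, an angiogenic factor and HIF target, fell by 0.92 (-0.92 ± 0.19, adjusted p = 0.00105) in IL-13/IL-6 against IL-13, from between 48.4 and 62.9 CPM to between 25.2 and 37.5. *Adm*, which encodes adrenomedullin, was called higher with IL-6 beside IL-4 (3.51 ± 0.94, adjusted p = 0.00642), but its IL-4/IL-6 libraries were at 0, 2.00 and 1.33 CPM and the groups overlapped.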

How the data were processed

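RNA of 15 mouse BMDM libraries was sequenced and first analysed by a service company. Per the submitters' processing notes, Bowtie2 2.2.3, HISAT2 2.1.0, TopHat2, CASAVA and DESeq2 were used on GRCm38, with roles not given in the sources used here. The authors deposited raw read counts per Ensembl identifier, without normalization, and lists of FPKM values per library. In the deposited FPKM, 192221 values with counts of at least 10 equaled the count over the library total and over a gene length fixed to within a relative 7.99e-08. FPKM served for isoform shares and for levels between genes.

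Symbols, coordinates and overlaps came from GENCODE M21 (GRCm38), which holds 53274 of 53465 identifiers, and upstream sequences from RefSeq. Copies of a gene were found with blastn at 95% identity or more over at least 50% of the copy. Counts were fitted with edgeR 4.0.16 in R 4.3.3 (filterByExpr with minimum count 10, TMM factors, glmQLFit and glmQLFTest, no covariate, all 15 libraries). The difference between both IL-6 effects was tested as an interaction contrast. The procedure was tested on simulated data.

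All 36 genes are reported, with values per library for those called with an absolute log2 fold change over 1 in any of the 4 main comparisons and for genes that the comparisons turn on. Of the further list, at most the 3 called genes with the largest changes per main comparison are named. The genes and lists were chosen with earlier results of these data known. Alternatives were DESeq2 1.42.0, upper-quartile factors, library totals, other filters on low counts (none, or a minimum of 50), a replicate block, only the compared groups, copies added and leaving out each library. Leaving out both libraries that stood apart was chosen after seeing the data. Replicates of every group differed beyond counting noise.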

Additional observations from a re-analysis of the deposited data

Results flagged for a closer look

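The change with IL-6 differed between cells with IL-13 and cells with IL-4 for 3 of the 36 genes, by the interaction contrast of edgeR's quasi-likelihood test with all 15 libraries. That is 2 higher and 1 lower, where 4.42% and 3.22% of all genes were called, and 7 and 1 without IL-4/IL-6 replicate 2, where 5.59% and 4.25% were. The difference (change with IL-13 minus change with IL-4) was 0.93 for *Slc2a6*, with IL-6 lowering this carrier by a smaller amount beside IL-13. It was 0.63 for *Pfkfb4*, which also fell less beside IL-13, and -0.34 for *Hk3*, which rose less. The first 2 were called under all 24 other settings, with adjusted p of at most 0.00029 and 0.0045, and *Hk3* under 19 of them.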

How the results depend on the processing

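No called change of the 37 identifiers turned its sign under the other settings run, 24 for each (23 for the second *Aldoa* identifier, which did not pass the filter at a minimum of 50). Calls held under all settings run for 27 of 29 in IL-4 over control, 25 of 28 in IL-13 over control, 18 of 22 with IL-6 beside IL-4, 9 of 17 with IL-6 beside IL-13, 2 of 3 for the difference between both IL-6 effects, and 4 of 4 in IL-13 over IL-4. The number of genes that rose with IL-6 beside IL-4 was 7, and 4 with upper-quartile factors and 4 with library totals, with 18 and 17 lower. Over all genes the share higher also went from 20.7% to 14.9% and 14.4%, and the share lower from 18.7% to 23.3% and 23.5%. Library totals alone shift the median of all genes in IL-4/IL-6 over control from -0.05 to -0.19. Leaving out single libraries gave between 4 and 8 there and between 3 and 7 for genes that rose with IL-6 beside IL-13. For the difference between both IL-6 effects it gave between 2 and 7 higher and between 0 and 1 lower, and without a filter on low counts the numbers were 5 and 0. For IL-13 over IL-4 it gave between 3 and 5 higher and between 1 and 3 lower, the count higher was 6 without the filter, and the count lower was 2 with DESeq2 and 2 with upper-quartile factors. Without both libraries that stood apart (IL-4/IL-6 replicate 2 and IL-13 replicate 1), 23 genes fell with IL-6 beside IL-4 (all genes: 21.2%), the difference between IL-6 effects was called for 10 higher and 2 lower (9.05% and 8.58%), and IL-13 over IL-4 for 8 higher and 4 lower (17.7% and 15.5%). *Tpi1* (-0.18) and *Pgls* (-0.22), not called with IL-6 beside IL-4, were then called lower. The cause was not tested.

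Same-numbered libraries did not deviate together (correlations of their deviations reached from -0.28 to 0.16), so the numbers were not taken as pairs. With a replicate block, 7 rose and 15 fell with IL-6 beside IL-4, 6 and 11 beside IL-13, 19 and 10 in IL-4 over control and 19 and 8 in IL-13 over control, and the difference between both IL-6 effects was called for 3 higher and 1 lower. Depth limits the second *Aldoa* identifier, *Egln3* and *Ldhb* most, with at least 0, 12 and 29 counts per library.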
